A study of Mus musculus with 4 samples.

Results

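The genes examined here are 9 enzymes of amino acid breakdown: Tat, Hpd, Hgd and Fah on the tyrosine route, Tdo2 and Kmo on the tryptophan route, Hal for histidine, Sds for serine and Aass for lysine. They were taken by gene symbol from the deposited expression table, which lists 13903 genes, and all 9 were found. The samples were livers of OGT-Floxed mice on a C57BL/6J background that had been given CDE, a diet low in choline with added ethionine that is used to damage the liver. For the OGT-KO label the mice were given AAV8-TBG-CRE, a virus in which the thyroxine-binding globulin promoter drives Cre recombinase in hepatocytes, so that other liver cells are expected to keep OGT, the enzyme that attaches O-GlcNAc to proteins. The mice labelled control had the floxed alleles and the diet too, but were given AAV8-TBG-eGFP. Tissue was collected either at the end of the diet, with no recovery, or after a 7 day recovery from it. Each of the 4 conditions was 1 library of messenger RNA made from equal parts of RNA of 3 mice, so the spread between mice was not measured, no difference below has a replicate check, and no test between conditions was possible. No library came from mice that had not been given CDE, and ages were not given in the sources used here.

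Amino acid catabolism is largely a task of hepatocytes, which remove surplus amino acids from portal blood and turn their carbon skeletons into glucose, ketone bodies or cofactors. Several of the enzymes are known for hormonal control, Tat, Tdo2 and Sds being classic targets of glucocorticoids or glucagon, and Hal and Sds are known as periportal enzymes. Inherited loss of Fah, Hpd, Tat, Hgd, Hal or Aass causes a metabolic disorder, among them the tyrosinemias, alkaptonuria, histidinemia and hyperlysinemia.

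Of the 9 enzymes, Hal, Tdo2, Fah and Hpd were at least 2-fold lower in the OGT-KO-labelled library than in its control at both times, while Tat was the enzyme with the highest ratio between the labels. The sequences before the starts of these 5 genes are shown because they hold the ends of the range. They are from RefSeq on build GRCm38.p6, were matched by symbol, and cover the 250 bases before each annotated start, 5′ to 3′ on the strand of the gene. They lie at chr10:93488518-93488767 (plus strand), chr3:81975729-81975978 (minus strand), chr7:84605943-84606192 (minus strand), chr5:123182724-123182973 (minus strand) and chr8:109990186-109990435 (plus strand). Capitals mark matches to any of 7 short motifs on either strand, and no matches overlapped in these windows.
Hal: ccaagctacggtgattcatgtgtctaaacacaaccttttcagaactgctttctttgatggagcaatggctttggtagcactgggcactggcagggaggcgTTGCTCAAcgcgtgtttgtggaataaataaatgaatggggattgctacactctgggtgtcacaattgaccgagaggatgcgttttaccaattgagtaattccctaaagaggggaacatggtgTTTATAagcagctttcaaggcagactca
Tdo2: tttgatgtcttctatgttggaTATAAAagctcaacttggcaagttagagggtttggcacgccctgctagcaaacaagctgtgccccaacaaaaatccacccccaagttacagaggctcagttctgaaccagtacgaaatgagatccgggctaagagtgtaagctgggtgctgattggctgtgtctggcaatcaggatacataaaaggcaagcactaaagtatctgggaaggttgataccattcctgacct
Fah: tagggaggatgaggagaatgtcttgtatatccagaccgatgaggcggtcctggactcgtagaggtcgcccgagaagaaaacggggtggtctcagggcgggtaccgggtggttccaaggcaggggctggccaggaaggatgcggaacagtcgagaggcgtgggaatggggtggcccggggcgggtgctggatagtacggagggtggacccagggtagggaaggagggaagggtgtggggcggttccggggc
Hpd: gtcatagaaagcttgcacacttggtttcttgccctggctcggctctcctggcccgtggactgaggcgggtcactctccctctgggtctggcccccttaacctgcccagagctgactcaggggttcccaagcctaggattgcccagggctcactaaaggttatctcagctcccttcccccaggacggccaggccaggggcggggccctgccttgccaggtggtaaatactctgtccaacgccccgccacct
Tat: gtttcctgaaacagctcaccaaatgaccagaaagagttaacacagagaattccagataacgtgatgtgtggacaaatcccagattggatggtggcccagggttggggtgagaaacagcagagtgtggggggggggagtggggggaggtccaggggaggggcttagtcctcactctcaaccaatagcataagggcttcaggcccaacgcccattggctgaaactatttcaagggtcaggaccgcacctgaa
The motifs searched were the TATA box (TATAAA), the C/EBP core (TTGCNNAA), the forkhead core (TGTTTAC), the HNF1 core (GTTAAT), the HNF4 core (CAAAGTCC), the glucocorticoid receptor core (TGTTCT) and the cyclic AMP response core (TGACG). A promoter entry was matched for 8 of the 9 genes, Sds being the other one. In Hal, TATAAA on the reverse strand began 28 bases before the start, and a C/EBP core began 150 bases before it. Tdo2 held TATAAA 229 bases before its start. The windows of Tat, Hpd and Fah held none of the 7 motifs. Over the 8 entries, the TATA box was found in 3 (Hgd, Tdo2 and Hal) against 12.4% of 32851 windows of the same length, and the C/EBP core in 3 (Hgd, Hal and Aass) against 9.56%. The cyclic AMP core was found in 1 (Aass), against 17.8% of all windows. The forkhead, HNF1, HNF4 and glucocorticoid receptor letters were in 0 of the 8, against 3.17%, 6.43%, 1.2% and 16.1% of all windows. Base composition differed among the 5 windows shown, from 45.6% G and C with 6 CpG pairs in Hal to 64.4% with 16 CpG pairs in Fah.

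The deposited values are CPM, reads of a gene scaled so that the listed genes of a library sum to 1000000. The libraries held 19972699 to 22866431 such reads, so that 3 reads, taken as the floor, correspond to 0.131 to 0.150 CPM. Intervals are exact 95% intervals that leave out any difference between mice, being for counting error alone. Differences are in log2(CPM + 1), with the groups named in order of subtraction, and a gene was called at a 2-fold difference. Ogt, the targeted gene, was at 55.3 CPM in the OGT-KO-labelled library and 64.7 in control with no recovery, and at 77.7 and 55.7 at 7 days. In deposited CPM, whole-gene Ogt was thus not lower in the OGT-KO-labelled library at 7 days. Ogt was not recomputed with other scalings, and the sign of a difference of this size can turn with the scaling. Every direction here is a direction between labels. Over the 8963 genes averaging 10 CPM or more, which include all 9 enzymes, the median difference between labels was 0.51 with no recovery and 0.48 at 7 days. Median-ratio scaling sets the median ratio over genes with reads in all 4 libraries equal. With it the median difference of the 8963 genes was -0.19 and -0.18, and 61.1% and 61.7% of them were below 0. Differences are therefore also given relative to the median gene.

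The OGT-KO-labelled library had lower levels of most of these enzymes at both times. With no recovery, 8 of the 9 had a negative difference and 6 were at least 2-fold lower (Hal, Tdo2, Fah, Hpd, Aass and Hgd), where 5.69% of all genes compared were at least 2-fold lower. At 7 days, 8 of the 9 again had a negative difference and 4 were at least 2-fold lower (Hal, Tdo2, Fah and Hpd), against 4.27% of all genes. These 4 made up the enzymes called lower at both times, against 3.74% of all genes, and they took the same order of size at both. All 9 averaged over 50 CPM, and among the 3220 genes that did, the shares at least 2-fold lower were larger, 10.9% with no recovery and 8.73% at 7 days. No enzyme was at least 2-fold higher at either time, whereas 24.4% and 22.9% of all genes were. The median difference of the 9 was -1.17 with no recovery and -0.95 at 7 days, which is 1.68 and 1.43 below the median gene on the log2 scale. In these bulk livers, fewer hepatocytes and less of an RNA per hepatocyte cannot be told apart.

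**Figure D1:**
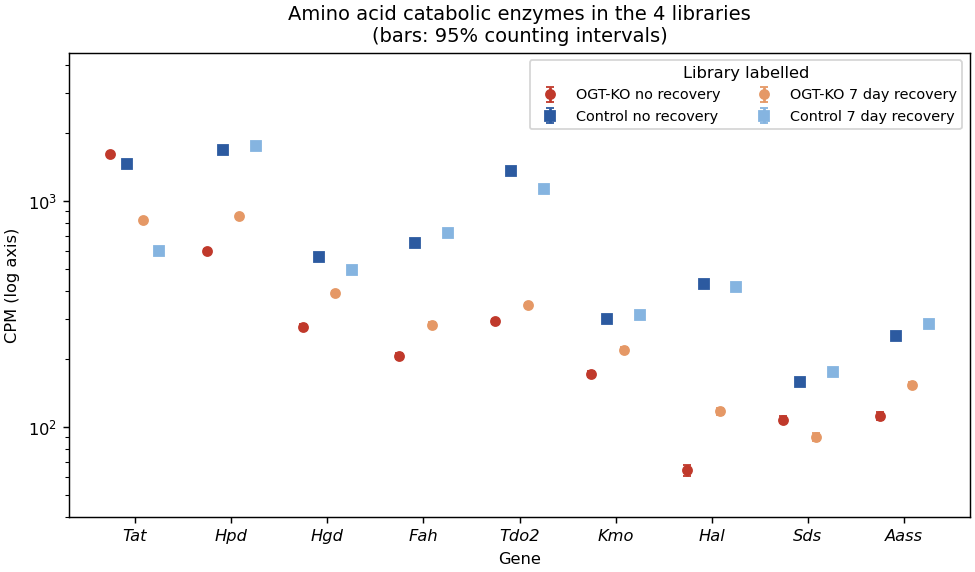
CPM of each enzyme (log axis) in the 4 libraries, circles for OGT-KO-labelled libraries and squares for control, with 95% counting intervals that are mostly narrower than the symbols. For every enzyme but Tat both squares lie above both circles, while for Tat the libraries with no recovery lie above those at 7 days.

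The tyrosine route held both kinds of pattern. Tat (ENSMUSG00000001670, chromosome 8), tyrosine aminotransferase, which takes the first step, was at 1609 CPM in the OGT-KO-labelled library and 1455 in control with no recovery, and at 823 and 599.6 at 7 days. The libraries with no recovery were thus high and those at 7 days low, whichever the label, and at each time the OGT-KO-labelled library was the higher one. The difference between labels was 0.14 (0.12 to 0.17) and 0.46 (0.42 to 0.49), and relative to the median gene it was -0.36 and -0.02. Its sign depended on the scaling: it was -0.57 and -0.23 with median-ratio scaling, -0.34 and -0.03 with upper-quartile scaling, and -0.08 and 0.19 with totals taken without the 100 genes of highest mean. By rank, 30.2% of all genes had a lower difference than Tat with no recovery and 48.5% at 7 days.

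The enzymes after Tat were lower in both OGT-KO-labelled libraries. Hpd (ENSMUSG00000029445, chromosome 5), the dioxygenase that makes homogentisate, was at 600.5 CPM in the OGT-KO-labelled library and 1673 in control with no recovery, and at 853 and 1757 at 7 days. The 2 libraries of each label lay apart from those of the other, with a 2.79-fold lower level in the OGT-KO-labelled library with no recovery and a 2.06-fold lower level at 7 days. Hgd (ENSMUSG00000022821, chromosome 16), which opens the ring of homogentisate, was at 278 and 564 CPM with no recovery and at 389.7 and 493 at 7 days. Its difference was -1.02 (-1.07 to -0.98) with no recovery, at the 2-fold limit within counting error, and -0.34 (-0.38 to -0.30) at 7 days, the smallest negative one of the 9 at that time. Fah (ENSMUSG00000030630, chromosome 7), which ends the route by splitting fumarylacetoacetate into fumarate and acetoacetate, was at 205 CPM in the OGT-KO-labelled library and 653 in control with no recovery, and at 283 and 719 at 7 days. Fah was 3.18-fold and 2.54-fold lower, with differences of -1.67 (-1.72 to -1.62) and -1.34 (-1.39 to -1.30). The last enzyme of the route therefore had a larger difference between labels than Hpd and Hgd at both times, and Tat, the first, was the one with no negative difference.

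On the tryptophan route, the entry enzyme differed more than the later one. Tdo2 (ENSMUSG00000028011, chromosome 3), the dioxygenase that opens the indole ring and commits tryptophan to the kynurenine route, was at 293 CPM in the OGT-KO-labelled library and 1361 in control with no recovery. At 7 days it was at 347 and 1124 CPM. Both control libraries were more than 3-fold above both OGT-KO-labelled libraries, with differences of -2.21 (-2.25 to -2.18) and -1.69 (-1.73 to -1.66). Of all genes compared, 1.52% and 1.47% had a lower difference than Tdo2. Kmo (ENSMUSG00000039783, chromosome 1), which hydroxylates kynurenine further down the route, was at 171 and 301 CPM with no recovery and at 219.7 and 312 at 7 days. Kmo was 1.77-fold and 1.42-fold lower in the OGT-KO-labelled library and was not called at either time.

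Hal had the largest difference of the 9. Hal (ENSMUSG00000020017, chromosome 10), histidine ammonia-lyase, which turns histidine into urocanate, was at 64.1 CPM in the OGT-KO-labelled library (1466 reads) and 427 in control (9084 reads) with no recovery, and at 117 and 417 at 7 days. The control libraries were alike, and the OGT-KO-labelled libraries were both low, the one with no recovery more so. Hal was 6.67-fold and 3.56-fold lower, with differences of -2.72 (-2.82 to -2.66) and -1.82 (-1.90 to -1.77). Of the 8963 genes, 84 had a lower difference with no recovery and 108 at 7 days.

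Sds and Aass differed less. Sds (ENSMUSG00000029597, chromosome 5), serine dehydratase, which makes pyruvate from serine, was at 108 CPM in the OGT-KO-labelled library and 158 in control with no recovery, and at 90.2 and 175 at 7 days. It was the single enzyme of the 9 with a more negative difference at 7 days, -0.95 (-1.04 to -0.88), than with no recovery, -0.55 (-0.63 to -0.48). Its interval at 7 days spanned the 2-fold limit, so that it was below the limit by less than the counting error. Aass (ENSMUSG00000029695, chromosome 6), the enzyme that carries lysine through saccharopine, was at 112 and 253.5 CPM with no recovery and at 153 and 284 at 7 days. Its differences were -1.17 (-1.25 to -1.11) and -0.89 (-0.95 to -0.83), so it was called with no recovery and not at 7 days.

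**Figure D2:**
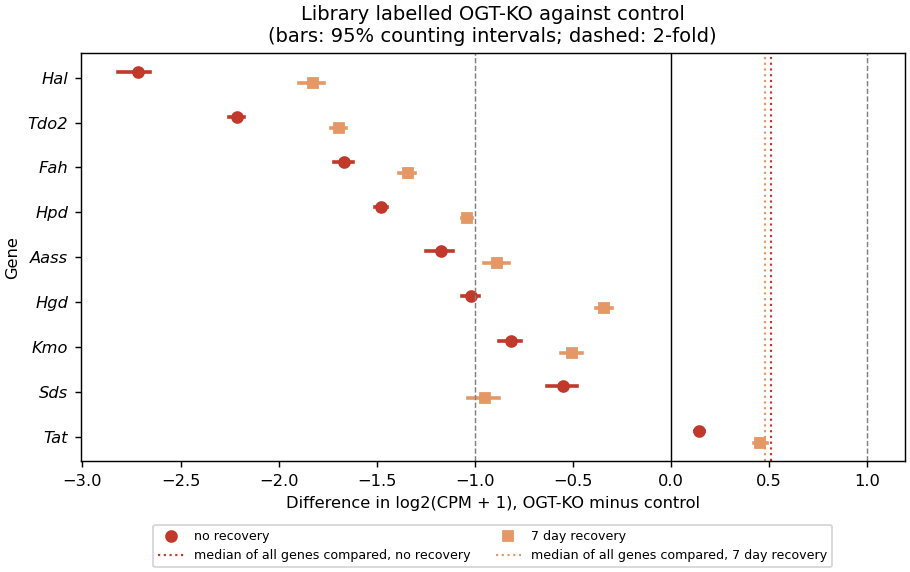
Difference in log2(CPM + 1) of each enzyme, OGT-KO-labelled library minus library labelled control, with no recovery (circles) and at 7 days (squares), with 95% counting intervals, dashed lines at 2-fold and dotted lines at the median of the 8963 genes. Differences run from -2.72 for Hal to 0.14 for Tat with no recovery and from -1.82 to 0.46 at 7 days.

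Scaling moved all 9 enzymes together. With median-ratio scaling, all 9 had negative differences at both times and 8 of the 9, Tat being the exception, were at least 2-fold lower at each time, where 15.4% of all genes were with no recovery and 11.8% at 7 days. The median of the 9 was then -1.89 and -1.63. Relative to the median gene it was -1.70 and -1.45, close to the -1.68 and -1.43 of the deposited scaling. A scaling shifts every gene by nearly the same amount, so the order of the 9 and their distance from the median gene could hardly differ between scalings.

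**Figure D3:**
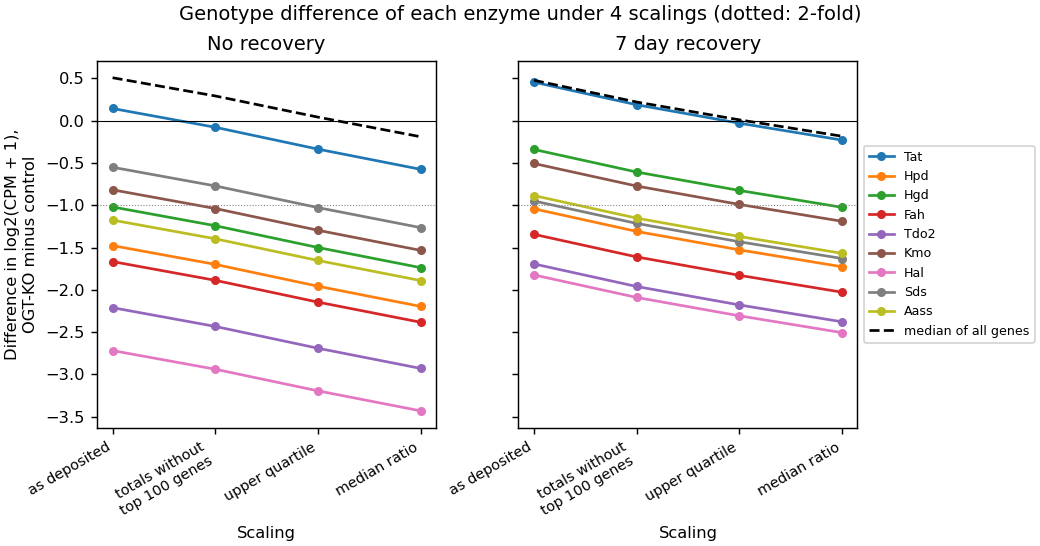
Difference in log2(CPM + 1), OGT-KO-labelled library minus control, of each enzyme under the deposited scaling and 3 alternatives, with no recovery (left) and at 7 days (right). The lines run parallel to the dashed median of all genes, and Tat is the one that crosses 0.

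Levels between the genes were compared per kilobase of the principal coding transcript of GENCODE M21, which ranged from 1288 bases in Sds to 5319 in Hal and had 9 to 24 exons. On this scale of level, CPM per kb, the order in the control library with no recovery was Hpd (1191), Tat (613), Fah (412), Tdo2 (397), Hgd (331), Sds (123), Kmo (112), Hal (80.3) and Aass (68.5). No neighbours in that order had overlapping counting intervals, and no spread between mice was available. In the OGT-KO-labelled library with no recovery the order was Tat (677), Hpd (428), Hgd (163), Fah (129.5), Tdo2 (85.5), Sds (83.6), Kmo (63.3), Aass (30.2) and Hal (12.1), where the intervals of Tdo2 and Sds overlapped. Tat thus stood above Hpd in that library alone, since at 7 days the levels were 346.5 for Tat and 608 for Hpd in the OGT-KO-labelled library and 252.5 and 1251 in control. Hgd stood above Fah in both OGT-KO-labelled libraries, at 229 against 178.5 CPM per kb at 7 days, and below it in both control libraries, at 289.9 against 454 at 7 days.

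The recovery comparison asked how each label differed between the end of the diet and 7 days later. In control, 1 of the 9 enzymes was at least 2-fold different, where 1.2% of all genes were. This was Tat, 2.43-fold lower at 7 days, with a difference of -1.28 (-1.31 to -1.25), and 30 of the 8963 genes had a lower one. The other 8 differed by -0.28 to 0.16 in control. In the OGT-KO-labelled libraries, 0 of the 9 were at least 2-fold different, against 1.47% of all genes. Tat was again the lowest, 1.95-fold lower at 7 days with a difference of -0.97 (-0.99 to -0.94), and 45 genes had a lower one. Of the other enzymes, 7 were higher at 7 days in the OGT-KO-labelled library, by 0.24 (Tdo2) to 0.86 (Hal), and Sds was lower by 0.25. Hal, at 1.83-fold higher, exceeded 98.4% of all genes. The median over the 9 was 0.05 in control and 0.45 in the OGT-KO-labelled libraries, against medians of all genes of -0.05 and -0.03.

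**Figure D4:**
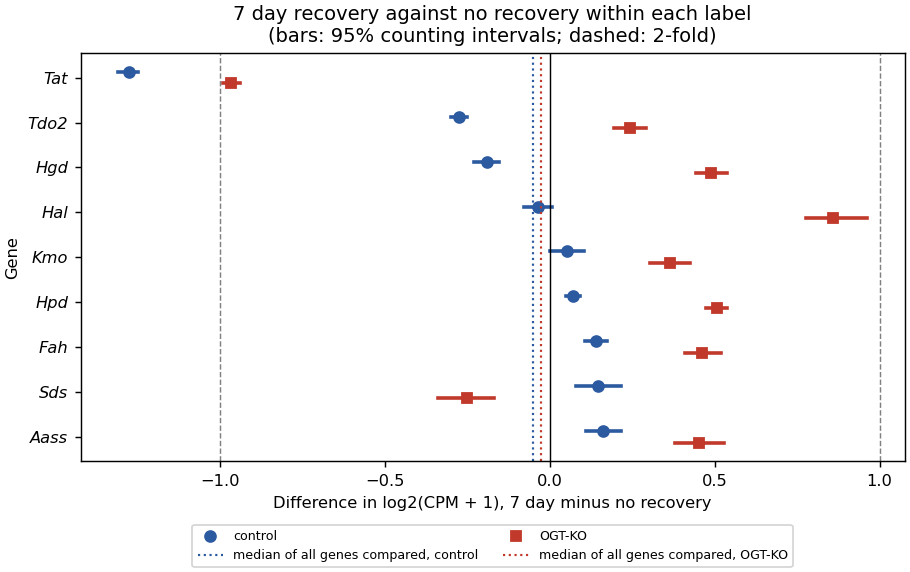
Difference in log2(CPM + 1) of each enzyme, 7 days minus no recovery, in control (circles) and in the OGT-KO-labelled libraries (squares), with 95% counting intervals, dashed lines at 2-fold and dotted lines at the median of all genes compared. Tat is low under both labels, at -1.28 and -0.97, and 7 enzymes are above 0 in the OGT-KO-labelled libraries.

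The difference between labels was smaller at 7 days than with no recovery for 7 of the 8 enzymes with negative values, Sds being the exception. The 7 day difference minus the one with no recovery was 0.89 for Hal, 0.68 for Hgd, 0.52 for Tdo2 and 0.44 for Hpd, and between 0.29 and 0.32 for Fah, Kmo and Aass. It was -0.40 for Sds and 0.31 for Tat. The middle 80% of all genes lay between -0.36 and 0.54 in this measure, so Hal and Hgd lay above that range and Sds just below it. With 1 library per condition this change between times was not tested.

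Other genes of the same routes were compared from 9 pathway lists, of which 68 genes that are not among the 9 enzymes averaged 10 CPM or more. With no recovery 36 of the 68 were at least 2-fold lower in the OGT-KO-labelled library and 3 at least 2-fold higher. Of all genes, 5.69% were lower and 24.4% higher. At 7 days 26 of the 68 were lower and 1 higher, beside 4.27% and 22.9% of all genes. At both times 24 were lower, beside 3.74% of all genes, and 1 was higher. With median-ratio scaling, 49 were lower with no recovery and 46 at 7 days, beside 15.4% and 11.8% of all genes. Lower at both times were 45, where the share of all genes cannot exceed 11.8%, and 0 were higher at either time. The same shares of all genes stand beside the list counts below. In the deposited scaling the median difference of the 68 was -1.12 and -0.75. Ido1 and Tdh were not analysed here, and Crym had a mean under 10 CPM.

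Around the tyrosine route, 3 of 5 other genes were lower at both times, among them Qdpr and Gstz1. Qdpr, which recycles a biopterin cofactor, differed by -2.15 with no recovery and -1.50 at 7 days. Gstz1, the isomerase between Hgd and Fah, differed by -1.36 and -1.01. Among the other tryptophan genes, 5 of 9 were lower at both times, led by Aadat (-2.52 and -1.98), an aminotransferase of kynurenine and of the lysine route, Haao (-2.51 and -1.79), which opens the ring of hydroxyanthranilate, Ido2 (-2.53 and -1.56) and Afmid (-1.64 and -1.39), the formamidase after Tdo2. Ido2, a relative of Tdo2 in reaction, had low levels, 15.5 and 94.2 CPM with no recovery and 24.4 and 74.1 at 7 days.

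Of the other histidine genes, 1 of 3 was lower at both times (3 of 3 with median-ratio scaling), Uroc1, urocanase, the step after Hal, at -1.73 and -1.11. In the serine, glycine and threonine list 2 of 9 were lower at both times (4 of 9 with median-ratio scaling), Agxt (-1.63 and -1.16), the alanine-glyoxylate aminotransferase, and Shmt1 (-1.74 and -1.02), the cytosolic serine hydroxymethyltransferase. Sdsl, the close relative of Sds, differed by 0.50 and 0.61 at 26.7 against 18.6 CPM and 21.1 against 13.5, the opposite sign to Sds, and its sign turned with median-ratio scaling, to -0.19 and -0.04. Of the other lysine genes 4 of 6 were lower at both times: Hykk (-2.22 and -1.88), a hydroxylysine kinase, Dhtkd1 (-2.00 and -1.57), which acts on oxoadipate, Gcdh (-1.80 and -1.27), glutaryl-CoA dehydrogenase, and Pipox (-1.68 and -1.16), which oxidizes pipecolate.

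In the branched-chain list 6 of 20 were lower at both times, or 14 of 20 with median-ratio scaling, led by Aldh6a1 (-2.11 and -1.52), Mccc2 (-1.81 and -1.25), Pccb (-1.62 and -1.41) and Acadsb (-1.45 and -1.11). These act in mitochondria on intermediates of valine, leucine, isoleucine and propionyl-CoA. In the proline list 2 of 4 were lower at both times, Prodh (-1.45 and -1.52), proline dehydrogenase, and Prodh2 (-3.47 and -1.55), hydroxyproline dehydrogenase. In the cysteine and taurine list Mpst was the 1 of 6 lower at both times (-1.62 and -1.11), against 4 of 6 with median-ratio scaling, and Sqor, the sulfide oxidase of mitochondria, was the 1 gene of the 68 that was higher at both times (1.13 and 1.08), though not called with median-ratio scaling (0.41 and 0.40). None of 6 aminotransferases outside the routes was lower at both times, against 2 with median-ratio scaling. Chosen after their values were seen, Gldc and Gpt2 were the remaining genes called higher with no recovery, at 1.05 and 1.14, and neither was called with median-ratio scaling (0.33 and 0.42).

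**Figure D5:**
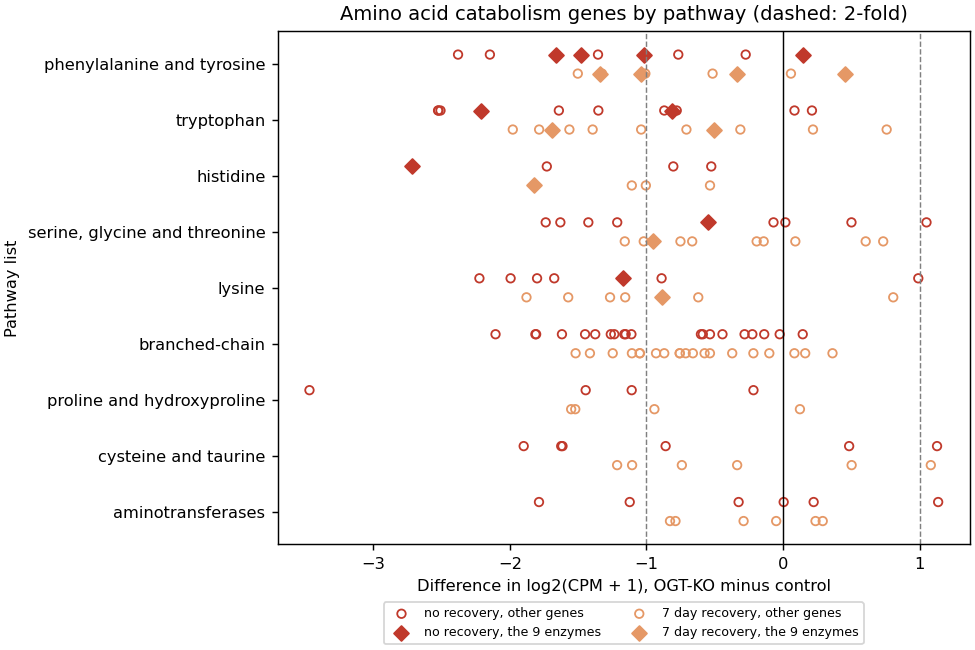
Difference in log2(CPM + 1), OGT-KO-labelled library minus control, of all genes past the filter in 9 pathway lists, with no recovery and at 7 days, the 9 enzymes as filled diamonds and other genes as open circles, dashed lines at 2-fold. The median of every list lies left of 0 at both times, nearest to it for the aminotransferases, at -0.16 and -0.17.

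On recovery, the same 68 genes had a median difference of -0.003 in control and 0.30 in the OGT-KO-labelled libraries, where 53 of 68 were above 0. In control 1 of the 68 was at least 2-fold different, about the 1.2% of all genes, namely Kyat3, a kynurenine aminotransferase, at -1.14. In the OGT-KO-labelled libraries 2 of the 68 were, beside 1.47% of all genes, Prodh2 (1.68) and Dbt (1.08), a branched-chain dehydrogenase subunit. These 3 were named after their values were seen.

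Of 9 receptors and transcription factors known to act on these genes, 8 passed the filter. With median-ratio scaling 4 of the 8 were at least 2-fold lower at both times. Of all genes, 15.4% were lower with no recovery and 11.8% at 7 days in that scaling. In the deposited scaling 1 of the 8 was lower at both times, against 3.74% of all genes: Gcgr, the glucagon receptor, at -1.02 and -1.11. Chosen after their values were seen, Hnf4a was called lower with no recovery (-1.34) and was at -0.91 at 7 days, and Cebpa was called lower at 7 days (-1.07) and was at 251 against 502 CPM with no recovery. Nr3c1, the glucocorticoid receptor, also named after its values were seen, differed by 0.20 and -0.02.

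Markers of other liver cells moved with the label. The hepatocyte markers were present, and 2 of 5 measured (Apoa1 and Serpina1a) were at least 2-fold lower at both times, against 3.74% of all genes. Alb differed by -0.21 and -0.08 and Cps1 by -0.43 and -0.05. In the deposited scaling 24.4% of all genes were at least 2-fold higher with no recovery and 22.9% at 7 days. These shares stand beside the marker counts that follow in that scaling. Summed markers of stellate cells and fibroblasts were at 2835 CPM in the OGT-KO-labelled library and 115 in control with no recovery. At 7 days they were at 3637 and 82.5, with 6 of 6 at least 2-fold higher at both times. Bile duct markers summed to 1148 against 53.7 and 1457 against 69.6, with 5 of 5 higher at both times. Most of each sum was Spp1, at 977 against 41.0 CPM and 1245 against 52.1. Macrophage markers summed to 498 against 157 and 370.0 against 60.3, with 4 of the 4 past the filter higher at both times, and endothelial markers to 246 against 148 and 178 against 109, with none of 5 higher at both times. Lymphocyte markers were low, 3 of 5 being listed with none above 2.23 CPM, but all 3 had more CPM in the OGT-KO-labelled library at both times. Cd3e was at 51 against 13 reads and 25 against 7, and Cd8a had 0 reads in control at 7 days, where 3 reads are 0.150 CPM. Of zonation markers, 4 of 6 pericentral genes were lower at both times (Glul, Cyp2e1, Slc1a2 and Rgn), while the other 2 were higher in the OGT-KO-labelled library, Lect2 by 0.25 and 1.03 and Axin2 by 0.94 and 0.45. The 6 periportal genes were split, with 2 at least 2-fold lower and 2 higher with no recovery, and 1 lower and 1 higher at 7 days. Cyp2f2 was lower and Cdh1 higher at both times. With median-ratio scaling, 3 of 5 hepatocyte markers and 3 of 6 periportal genes were at least 2-fold lower at both times. Of all genes, 15.4% were lower with no recovery and 11.8% at 7 days in that scaling. No periportal or pericentral gene was called higher at both, although the difference of Cdh1 stayed positive (0.89 and 1.48). Lect2 (-0.46 and 0.35) and Axin2 (0.29 and -0.19) were not called and each changed sign at 1 time. Of the macrophage markers 3 of 4 were called higher at both times. The median of the endothelial markers was 0.63 and 0.64 in the deposited scaling and -0.08 and -0.02 with median-ratio scaling. The part of these shifts in the enzymes' differences was not tested.

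The genes outside the 9 whose pattern lay nearest to the enzymes' median pattern, by Euclidean distance over the 4 libraries after centring log2(CPM + 1), were Ceacam1, Bphl and Acad8. Ceacam1 was at 61.2 and 150.4 CPM with no recovery and 77.9 and 157 at 7 days, in the OGT-KO-labelled library and control in turn. Bphl was at 44.2 and 111 and at 57.65 and 117 CPM. Acad8, an enzyme of valine breakdown, was at 20.3 and 46.3 and at 24.5 and 51.8 CPM. Their distances were 0.06, 0.07 and 0.08 on the log2 scale.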

How the data were processed

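The 4 libraries were livers of mice, 1 library per condition. The authors deposited CPM, read counts scaled to 1000000 per library over 13903 genes; the table is named for DESeq2, but every column sums to that total. The submitters' processing notes name STAR, DESeq2 and build GRCm39, with no role or version; the counter, annotation and gene filter are not given in the sources used here. Of the values in each library, 100.0% were whole multiples of 1 read (within 0.01 reads), so reads were recovered. All columns were used.

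Differences were taken in log2(CPM + 1) and called at 2-fold among genes averaging 10 CPM or more. Intervals were exact binomial at 95%, those of differences being for the ratio of reads with no pseudocount. With 1 library per condition there is no test between conditions. Alternatives were pseudocounts of 0.1 and 10, other scalings, filters and folds, and an exact binomial test on reads with Benjamini-Hochberg adjustment, which compares libraries and not conditions. Steps were tested on simulated reads with 200 genes changed 4-fold, as many up as down. In these data more genes were called higher than lower between labels, a setting that the simulation did not cover. The 9 enzymes and the lists were chosen with earlier results of these data known. In the lists, genes called the same way at both times were named, at most 4 a list, with Sdsl and Ido2 as relatives of the enzymes and the 3 genes nearest in pattern; other names are marked, and 1 gene that this rule names is not reported here. Hpdl, Ido1, Tdh, Tf, Trac and Ncr1 were not analysed here. Promoters and transcript lengths were on GRCm38 (RefSeq and GENCODE M21) and no coordinates were taken over to GRCm39. Python 3.11 with numpy, pandas and scipy was used.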

Additional observations from a re-analysis of the deposited data

Results flagged for a closer look

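Between 7 days and no recovery, 3 enzymes moved opposite ways under the 2 labels, with counting intervals on opposite sides of 0. Tdo2 differed by -0.28 in control and 0.24 in the OGT-KO-labelled libraries. Hgd differed by -0.19 in control and 0.49 in the OGT-KO-labelled libraries. Sds went the other way, at 0.15 in control and -0.25 in the OGT-KO-labelled libraries. All are under 2-fold, rest on 1 library per condition, and the difference between the labels was not tested.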

How the results depend on the processing

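Counts of enzymes at least 2-fold different between labels stayed within 1.5 times with either pseudocount, with upper-quartile scaling and with totals taken without the 100 highest genes. With median-ratio scaling 8 enzymes were called at 7 days and 8 at both times, against 4 and 4. At 4-fold, 2 were called with no recovery, 0 at 7 days and 0 at both times, and 0 on recovery in control. At 1.5-fold, 2 were called on recovery in the OGT-KO-labelled libraries (Tat lower, Hal higher). Shares of all genes at 4-fold and 1.5-fold were not counted, so these counts cannot be set against all genes. Requiring the exact binomial test on reads as well removed no called enzyme. It also removed none of the 2695 genes called between labels with no recovery or the 2433 at 7 days. At these depths it could hardly remove any, so it gives no further check. Of 13903 genes that test alone called 12150 with no recovery and 11969 at 7 days, and it compares libraries only. Of 180 recomputed differences of single enzymes 172 kept their sign. The 8 that changed were those of Tat between labels (5) and of Hal on recovery in control (3), which were not called. The share of all genes called, lower and higher together, stayed within 1.5 times without the filter or at an average of 50 CPM or more, but the share at least 2-fold lower, counted apart after seeing the data, was 4.35% and 3.32% without the filter and 10.9% and 8.73% at 50 CPM, against 5.69% and 4.27%. List counts with median-ratio scaling were also added after seeing the data. No paired analysis was possible because each condition has 1 library. The spread between mice was not measured, and the intervals give only what depth limits.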
